A study of Homo sapiens with 10 samples.

Results

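The core genes of canonical NF-kB signalling were followed in U2OS cells after knockdown of DDX41. The 10 genes were chosen by name and matched to the count tables through their Ensembl identifiers: the subunit genes RELA, NFKB1 and REL, the kinase gene IKBKB, the IkB inhibitor genes NFKBIA, NFKBIB and NFKBIE, and the A20 and ABIN inhibitor genes TNFAIP3, TNIP1 and TNIP2. All 10 had a row among the 63299 rows of the tables, and 9 of them were among the 16143 genes with enough counts to be tested. U2OS is a human osteosarcoma cell line. Cells received either a control siRNA pool (siCtrl) or an siRNA pool against DDX41 (siDDX41), polyadenylated RNA was taken 48 h later, and 5 libraries of each group were compared. The siCtrl libraries held 23393764 to 24598860 counts and the siDDX41 libraries 21807041 to 24896398. Nothing in the labels says that libraries of a group came from separate cultures, so p-values measure only the spread between these libraries, which may be technical.

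NF-kB is a family of dimeric transcription factors, with RELA and NFKB1 (p50 and its precursor) forming the classical pair. In resting cells IkB proteins hold the dimers in the cytoplasm, until inflammatory receptors activate the IkB kinase complex, which marks IkB for ubiquitination and degradation and so frees the dimers. Several brakes on the pathway are themselves NF-kB target genes, which closes a negative feedback loop.

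DDX41, the targeted RNA helicase gene (ENSG00000183258.11), was measured first as a check of the labels. Its level in CPM (counts scaled to library size, with TMM) was 49.1, 49.4, 47.3, 47.2 and 50.5 in siCtrl replicates 1 to 5, and 11.5, 13.7, 12.4, 11.2 and 12.3 in siDDX41 replicates 1 to 5. Every siDDX41 library was far below every siCtrl library. The log2 fold change was -1.99 (SE 0.05, edgeR quasi-likelihood test, Benjamini-Hochberg adjusted p = 4.47e-24).

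The mesenchymal genes of the cell line were abundant, with SPARC at 2807 ± 32.8 CPM (SD, n = 5), VIM at 2465 ± 51.0 and COL1A1 at 1875 ± 100.3 in siCtrl, and RUNX2, an osteoblast lineage factor, at 32.4 ± 1.25. COL1A2 was near 0, at 0.448 CPM. The 8 markers summed to 9047 to 9394 CPM in siCtrl and 9172 to 9525 CPM in siDDX41. Single markers moved both ways under that sum. Of 7 tested, 2 were called up (COL5A1 at a log2 fold change of 0.69 and SPARC at 0.18). Another 3 were called down (ALPL at -0.70, RUNX2 at -0.40 and VIM at -0.09), beside 30.3% up and 32.1% down of all tested genes. Of 10 markers of other cell types, 4 were tested and 1 was called, beside the same shares of all tested genes. It was the endothelial gene CDH5, which fell from 1.02 to 0.355 CPM. Those 10 genes summed to 10.4, 10.0, 11.0, 11.1 and 10.9 CPM in siCtrl and 10.3, 11.3, 11.0, 10.1 and 9.49 CPM in siDDX41, most of it EPCAM at 7.99 and 8.31 CPM. Mitochondrially encoded genes took 1.13% to 1.69% of counts in siCtrl and 2.00% to 2.29% in siDDX41, without overlap, and the part of that difference in the results was not tested. In RNA from a whole culture, fewer cells of a type and less RNA per cell cannot be told apart.

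The subunit and kinase genes moved little, 3 of the 5 tested inhibitor genes rose, and 1 inhibitor gene, TNIP1, fell by more than any other of the 9 tested genes. A gene was called at an adjusted p under 0.01. By this rule 4 of the 9 were called up (NFKB1, NFKBIA, NFKBIE and TNFAIP3) and 3 down (RELA, IKBKB and TNIP1), while REL and TNIP2 were not called. Among all tested genes 30.3% were called up and 32.1% down, so the count of calls by itself is close to that of the other genes. Against a fold change of at least 1.2 (glmTreat in edgeR, same threshold), NFKBIE and TNFAIP3 were called up and TNIP1 down, beside 13.1% and 18.1% of all tested genes. The siDDX41 libraries all lay above the siCtrl libraries for 4 of the 9 genes and all below for 2, beside 26.7% and 29.3% of all tested genes.

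**Figure D1:**
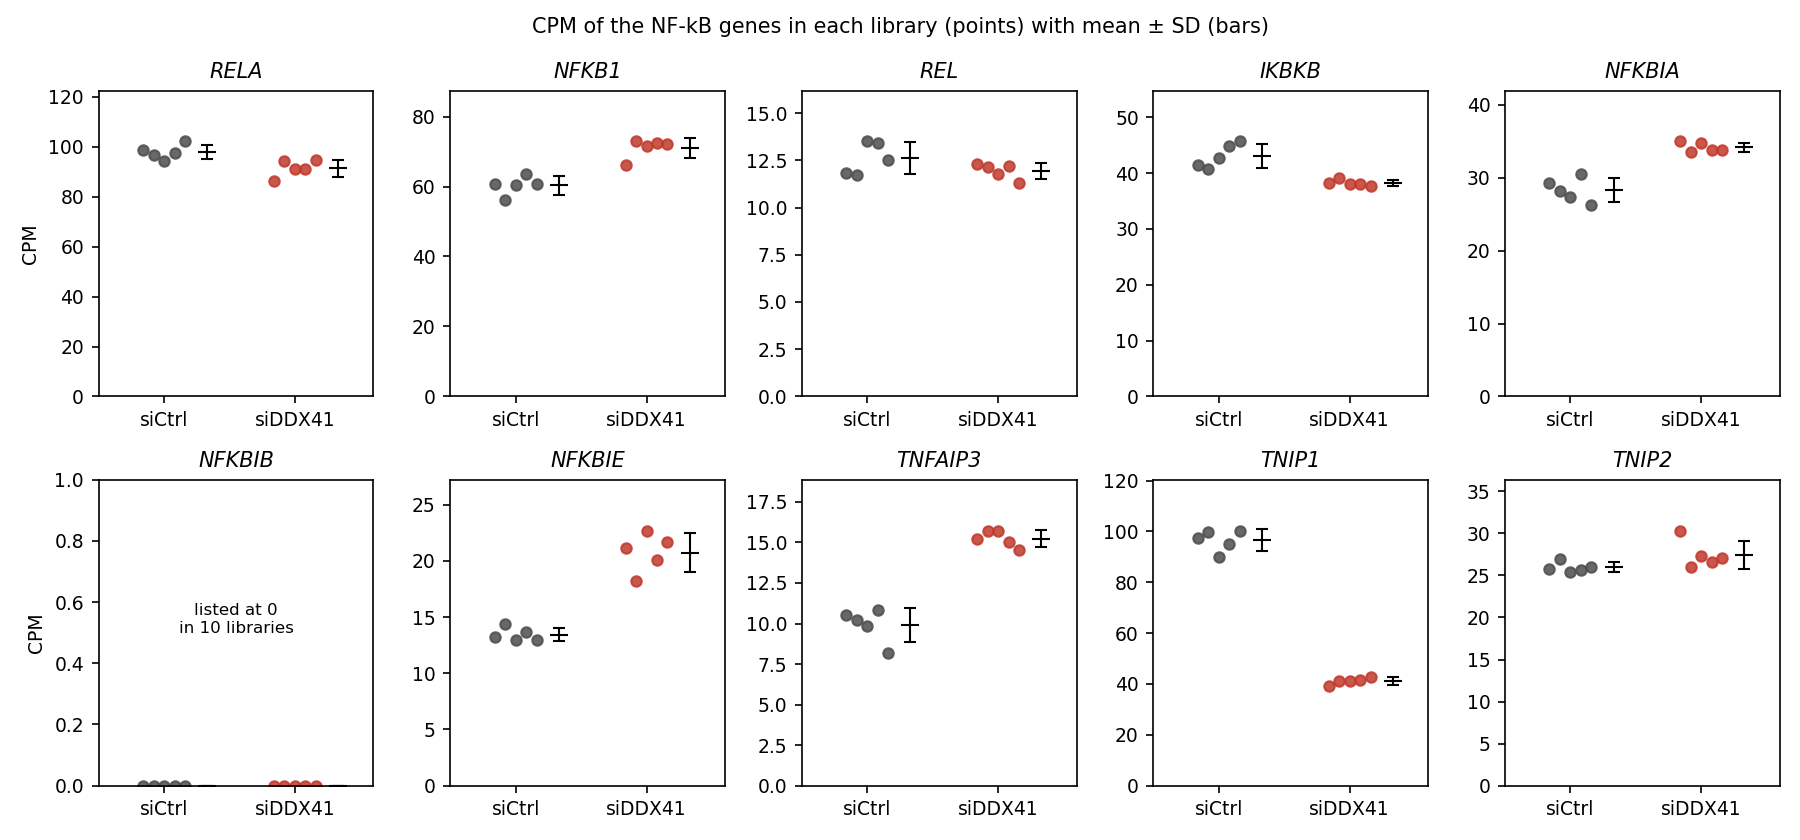
Level in CPM of each of the 10 genes in the 5 siCtrl (grey) and 5 siDDX41 (red) libraries, with points in replicate order, bars for the mean ± SD, and vertical axes that start at 0. TNIP1 lies near 41.2 CPM in siDDX41 and near 96.5 CPM in siCtrl, NFKBIE and TNFAIP3 are higher in all siDDX41 libraries, and NFKBIB is listed at 0 throughout.

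NFKB1 (ENSG00000109320.11, plus strand of chromosome 4, 102501330 to 102617302 in GRCh38) encodes p105, the precursor of p50 that also acts as an IkB. It was at 60.8, 56.1, 60.5, 63.7 and 60.7 CPM in siCtrl and at 66.2, 72.9, 71.6, 72.4 and 72.0 CPM in siDDX41. All siDDX41 libraries were higher than all siCtrl libraries, and siDDX41 replicate 1 was the lowest of its group. NFKB1 had a log2 fold change of 0.24 (SE 0.04, 95% interval 0.16 to 0.31, edgeR quasi-likelihood test, Benjamini-Hochberg adjusted p = 1.42e-06), that is 1.18-fold, and 26.6% of all tested genes had a larger one.

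RELA (ENSG00000173039.18, minus strand of chromosome 11, 65653599 to 65663090) encodes p65, the main activating subunit. Its levels were 98.8, 96.7, 94.2, 97.6 and 102 CPM in siCtrl and 86.3, 94.5, 91.0, 91.0 and 94.8 CPM in siDDX41. The groups overlapped, since the lowest siCtrl library lay below the highest siDDX41 libraries. The log2 fold change of -0.10 (SE 0.03, 95% interval -0.16 to -0.03) passed the threshold narrowly (edgeR quasi-likelihood test, Benjamini-Hochberg adjusted p = 0.00829). The call was lost without siCtrl replicate 1, 4 or 5 (adjusted p = 0.0189, 0.0139 and 0.0342, edgeR), without siDDX41 replicate 1, 3 or 4 (0.0426, 0.0225 and 0.0170), and with a correction for GC content, after which the log2 fold change was -0.0014.

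REL (ENSG00000162924.13) encodes c-Rel, a subunit best known from lymphoid cells. It ranged from 11.7 to 13.5 CPM in siCtrl and from 11.3 to 12.3 CPM in siDDX41, so that the groups overlapped. With a log2 fold change of -0.08 (SE 0.06, 95% interval -0.20 to 0.05) it was not called (edgeR quasi-likelihood test, Benjamini-Hochberg adjusted p = 0.253). With a correction for GC content it was lower, at -0.14, and again not called.

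IKBKB (ENSG00000104365.13, plus strand of chromosome 8, 42271302 to 42332460) encodes IKK-beta, the catalytic subunit that phosphorylates IkB in the canonical pathway. Its level was 41.4, 40.8, 42.7, 44.8 and 45.7 CPM in siCtrl and 38.3, 39.1, 38.1, 38.0 and 37.7 CPM in siDDX41. Each siDDX41 library was below each siCtrl library, by a narrow margin, and the siDDX41 values were tightly grouped. IKBKB fell with a log2 fold change of -0.17 (SE 0.04, edgeR quasi-likelihood test, Benjamini-Hochberg adjusted p = 0.000294), or 0.888-fold, and 67.4% of all tested genes had a larger absolute change.

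**Figure D2:**
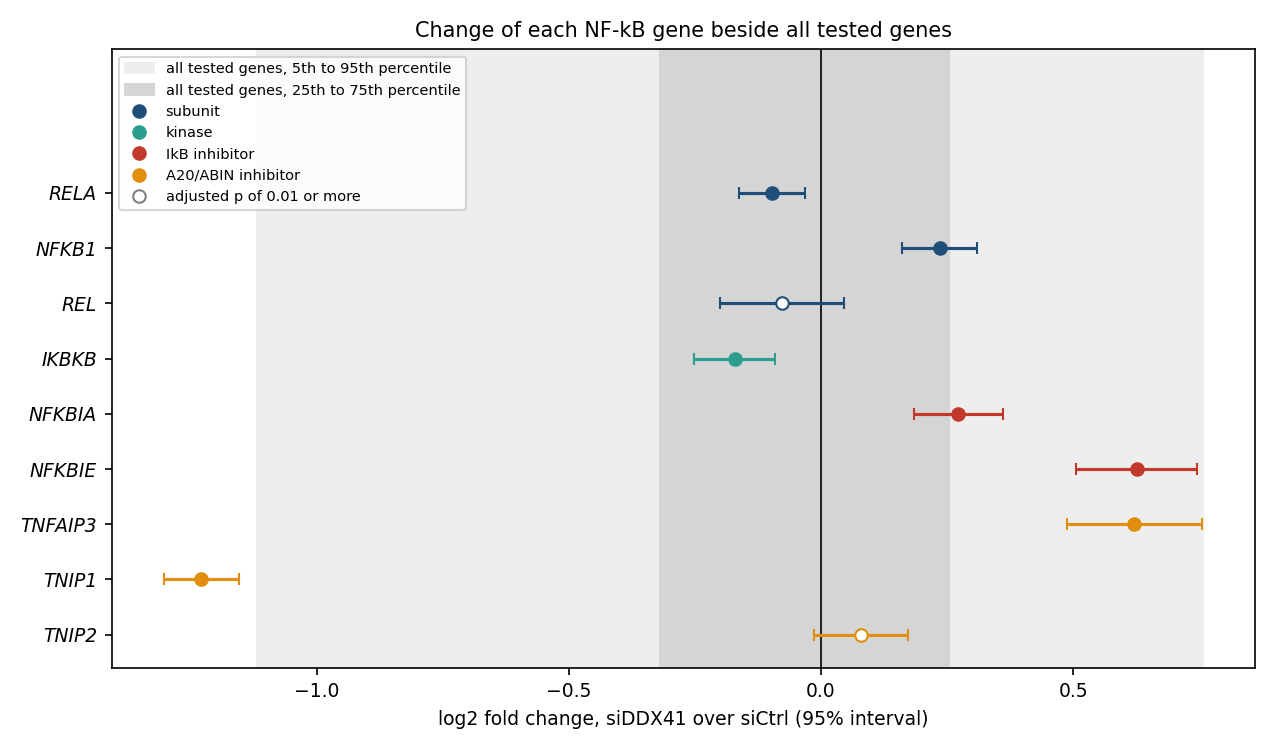
Log2 fold change of siDDX41 over siCtrl with its 95% interval for the 9 tested genes, coloured by role, over the 5th to 95th and 25th to 75th percentiles of all tested genes (grey), with open points for genes not called. The subunit and kinase genes lie between -0.17 and 0.24, NFKBIE at 0.63, TNFAIP3 at 0.62 and TNIP1 at -1.23, below the 5th percentile of -1.12.

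Among the IkB inhibitors, NFKBIA and NFKBIE rose and NFKBIB gave no value. NFKBIA (ENSG00000100906.10, minus strand of chromosome 14, 35401079 to 35404749) encodes IkB-alpha, the inhibitor that is degraded and resynthesised fastest in the feedback loop. It was at 29.2, 28.2, 27.4, 30.5 and 26.2 CPM in siCtrl and at 35.0, 33.6, 34.7, 33.8 and 33.8 CPM in siDDX41. The siDDX41 libraries lay close together above all siCtrl libraries. Its log2 fold change was 0.27 (SE 0.04, edgeR quasi-likelihood test, Benjamini-Hochberg adjusted p = 2.14e-06), or 1.21-fold.

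NFKBIE (ENSG00000146232.15, minus strand of chromosome 6, 44258166 to 44265788) encodes IkB-epsilon, a slower feedback inhibitor. Its level was 13.3, 14.4, 13.0, 13.7 and 13.0 CPM in siCtrl and 21.1, 18.2, 22.7, 20.1 and 21.7 CPM in siDDX41. The groups were well apart, although siDDX41 replicate 2 was lower than the other siDDX41 libraries. NFKBIE had a log2 fold change of 0.63 (SE 0.06, 95% interval 0.51 to 0.75, edgeR quasi-likelihood test, Benjamini-Hochberg adjusted p = 1.13e-10), or 1.54-fold, and 7.15% of all tested genes had a larger one.

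NFKBIB (ENSG00000104825.16, plus strand of chromosome 19, 38899700 to 38908893), the gene of IkB-beta, was listed at 0 counts in all 10 libraries. The surrounding genes were also at or near 0: of the 17 other protein-coding genes that start within 250 kb of NFKBIB, 12 had 0 counts over the 10 libraries and 15 had fewer than 10, including ECH1 (0), SARS2 (0), MRPS12 (0) and HNRNPL (7), which serve general metabolism, mitochondrial translation and RNA processing. Among all 19629 protein-coding genes, 14.0% had 0 counts and 23.4% fewer than 10. The 0 of NFKBIB is therefore not read as a level, and the neighbouring genes ECH1, SARS2, MRPS12 and HNRNPL were named after their values were seen.

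TNFAIP3 (ENSG00000118503.14, plus strand of chromosome 6, 137867214 to 137883314) encodes A20, a ubiquitin-editing enzyme that shuts down signalling upstream of IKK. It was at 10.5, 10.2, 9.84, 10.8 and 8.16 CPM in siCtrl and at 15.2, 15.7, 15.7, 15.0 and 14.5 CPM in siDDX41. All siDDX41 libraries were higher, and the lowest siCtrl value was that of replicate 5. The log2 fold change was 0.62 (SE 0.07, 95% interval 0.49 to 0.75, edgeR quasi-likelihood test, Benjamini-Hochberg adjusted p = 1.20e-09), or 1.54-fold. TNFAIP3 shares 95 exon bases with the antisense gene WAKMAR2, which had 88 counts over the 10 libraries against 2966 for TNFAIP3.

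TNIP1 (ENSG00000145901.14, minus strand of chromosome 5, 151029945 to 151093577) encodes ABIN1, a ubiquitin-binding partner of A20. Its level was 97.3, 99.9, 89.8, 95.1 and 100.3 CPM in siCtrl and 39.0, 41.2, 41.1, 41.6 and 42.9 CPM in siDDX41. The siDDX41 libraries lay below all siCtrl libraries, with a wide gap and little spread. The log2 fold change was -1.23 (SE 0.04, 95% interval -1.30 to -1.15, edgeR quasi-likelihood test, Benjamini-Hochberg adjusted p = 3.15e-22), or 0.427-fold, and 4.24% of all tested genes had a lower one.

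TNIP2 (ENSG00000168884.14) encodes ABIN2, the second ABIN protein with a related ubiquitin-binding domain. It ranged from 25.4 to 26.9 CPM in siCtrl and from 26.0 to 30.3 CPM in siDDX41, with overlap and with siDDX41 replicate 1 the highest. Its log2 fold change of 0.08 (SE 0.05, 95% interval -0.01 to 0.17) was not called (edgeR quasi-likelihood test, Benjamini-Hochberg adjusted p = 0.123), and without siDDX41 replicate 1 it was 0.045. With a correction for GC content it was called up, at 0.15 (adjusted p = 0.00286, edgeR).

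Promoter sequences are shown for NFKBIA, TNFAIP3 and TNIP1, because NFKBIA and TNFAIP3 rose and TNIP1 fell while all 3 hold a match to the consensus kB motif, the site bound by NF-kB dimers. Sequences of 300 bases, from 250 before to 50 after a transcription start, were taken from RefSeq (GRCh38.p14). They were searched on both strands for the 10-base kB consensus GGGRNWYYCC (R is A or G, N any base, W A or T, Y C or T). It was found in 5.91% of all 35116 promoters of this length, and by gene in 7.09% of 27305 genes. Of the 10 genes, 8 had 1 or 2 promoters in the table, and 6 of these (NFKB1, REL, NFKBIA, NFKBIB, TNFAIP3 and TNIP1) had a match in 1 promoter, which makes 6 of their 12 promoters. The promoters of RELA and TNIP2 held none in these windows, and NFKBIE and IKBKB had no entry. The capitals mark the matches, and each sequence runs 5′ to 3′ on the strand of its gene: NFKBIA at chr14:35404700-35404999 (minus strand), TNFAIP3 at chr6:137867009-137867308 (plus strand) and TNIP1 at chr5:151080985-151081284 (minus strand).
NFKBIA: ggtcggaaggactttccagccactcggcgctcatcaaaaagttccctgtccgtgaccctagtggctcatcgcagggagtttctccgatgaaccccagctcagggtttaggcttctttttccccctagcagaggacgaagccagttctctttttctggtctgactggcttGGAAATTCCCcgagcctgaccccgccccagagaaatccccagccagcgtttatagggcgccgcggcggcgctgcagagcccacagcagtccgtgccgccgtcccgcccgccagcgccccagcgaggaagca
TNFAIP3: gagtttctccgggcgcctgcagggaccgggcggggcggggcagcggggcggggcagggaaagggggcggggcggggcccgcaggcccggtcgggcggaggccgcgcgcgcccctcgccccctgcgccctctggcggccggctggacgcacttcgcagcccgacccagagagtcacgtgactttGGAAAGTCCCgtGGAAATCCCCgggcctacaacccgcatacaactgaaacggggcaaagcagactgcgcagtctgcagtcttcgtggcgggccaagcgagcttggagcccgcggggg
TNIP1: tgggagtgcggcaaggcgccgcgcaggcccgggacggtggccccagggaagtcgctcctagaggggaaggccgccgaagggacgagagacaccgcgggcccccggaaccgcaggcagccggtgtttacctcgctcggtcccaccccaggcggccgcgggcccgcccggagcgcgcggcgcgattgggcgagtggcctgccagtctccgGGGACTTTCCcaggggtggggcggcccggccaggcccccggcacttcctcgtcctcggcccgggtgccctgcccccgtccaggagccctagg
The match in NFKBIA begins 81 bases before the start, those in TNFAIP3 begin 67 and 55 bases before it, and the match in TNIP1 begins 42 bases before it. The matches in NFKBIA and TNFAIP3 fit the consensus on the strand opposite to the one printed, and that in TNIP1 on the printed strand. In the other RefSeq promoter of TNIP1 no match was found. A match describes letters in a window and is no measure of binding.

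The inhibitors and the subunits with their kinase were then set side by side. The median log2 fold change was 0.27 over the 5 tested inhibitors and -0.09 over the 4 subunit and kinase genes, beside -0.0014 over all tested genes. Of the inhibitors 3 were called up and 1 down, and of the 4 subunit and kinase genes 1 up and 2 down, beside 30.3% up and 32.1% down of all tested genes. Within each library, relative to the siCtrl mean, the inhibitor median lay from -0.05 to 0.05 in siCtrl and from 0.25 to 0.31 in siDDX41. In every siDDX41 library that median is the value of NFKBIA, the middle gene of the 5, so it restates 1 gene of a class that moved both ways. The subunit and kinase median lay from -0.09 to 0.07 and from -0.10 to -0.05, with overlap. The inhibitors also differed more among themselves, from -1.23 for TNIP1 to 0.63 for NFKBIE, than the subunits and kinase, from -0.17 for IKBKB to 0.24 for NFKB1. The median absolute change was 0.62 in the first class and 0.13 in the second, and 0.28 over all tested genes.

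Levels of different genes were compared as CPM per kilobase of the MANE Select transcript. On that scale the siCtrl order was RELA (38.9 ± 1.153, SD, n = 5), TNIP1 (33.6 ± 1.496), NFKBIA (18.2 ± 1.05), NFKB1 (14.9 ± 0.670), TNIP2 (13.3 ± 0.296), IKBKB (10.9 ± 0.534), NFKBIE (5.74 ± 0.261), TNFAIP3 (2.12 ± 0.223) and REL (1.13 ± 0.0763). The ranges of NFKB1 and TNIP2 overlapped, and no other neighbours in this order did. In siDDX41 TNIP1 moved from rank 2 to rank 4 (14.3 ± 0.489) and overlapped TNIP2 (14.1 ± 0.864), while NFKBIE (8.85 ± 0.734) came to overlap IKBKB (9.71 ± 0.138). With the union of all exons as the length, RELA stayed first and TNFAIP3 and REL, in that order, stayed the lowest of the 9 genes. The order of the genes ranked between RELA and TNFAIP3 depends on the length used. NFKB1 went from rank 4 to rank 7 in siCtrl and from 3 to 6 in siDDX41. In siDDX41 TNIP2 came to rank 2 and TNIP1 to rank 5, and NFKBIE at rank 4 stood above IKBKB at rank 7.

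The summed level per kilobase of the IkB genes NFKBIA and NFKBIE was divided by that of the subunit genes RELA, NFKB1 and REL in each library. The ratio was 0.441, 0.454, 0.431, 0.456 and 0.395 in siCtrl and 0.608, 0.518, 0.583, 0.549 and 0.548 in siDDX41. All siDDX41 libraries were higher. The mean rose from 0.435 to 0.561, or 1.29-fold. The subunit sum was 54.9 ± 1.43 in siCtrl and 54.9 ± 1.96 in siDDX41, since RELA and NFKB1 moved in opposite directions, and the IkB sum went from 23.9 ± 1.18 to 30.8 ± 1.04. The ratio of TNFAIP3 to its partner TNIP1, chosen after the values were seen, was 0.0663, 0.0628, 0.0674, 0.0700 and 0.0501 in siCtrl and 0.239, 0.235, 0.235, 0.222 and 0.208 in siDDX41. It was 3.60-fold higher in siDDX41, with TNFAIP3 up and TNIP1 down. These ratios are descriptions with no test.

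**Figure D3:**
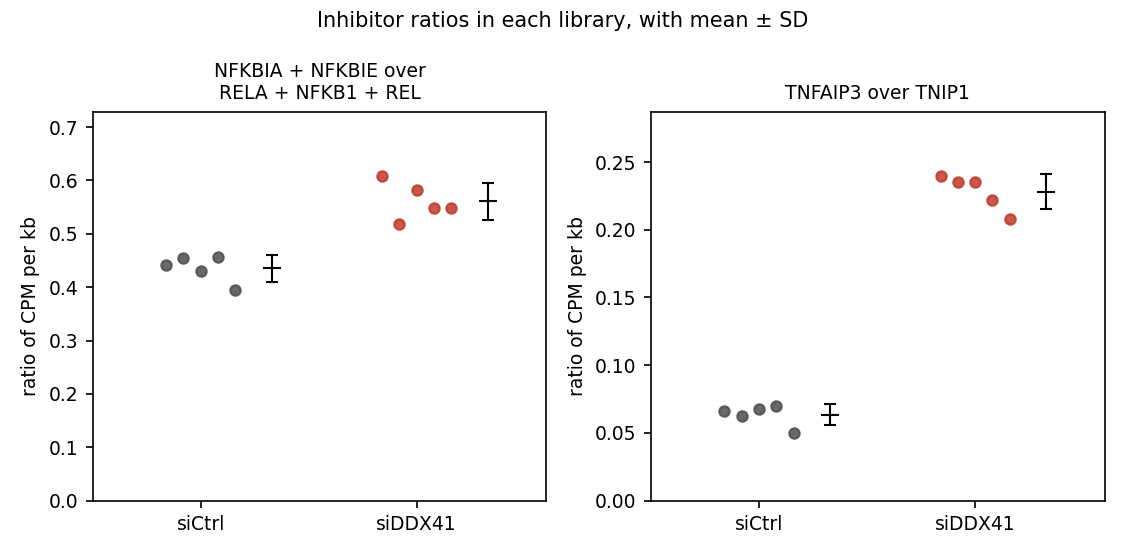
Ratio of summed CPM per kilobase in each siCtrl (grey) and siDDX41 (red) library, with the mean ± SD, for IkB genes over subunit genes (left) and for TNFAIP3 over TNIP1 (right), with both axes from 0. The siDDX41 libraries lie above the siCtrl libraries in both, at a mean of 0.561 against 0.435 and of 0.228 against 0.0634.

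The genes with a pattern most like that of TNIP1 were sought over the 10 libraries, by the root mean square difference of log2 CPM relative to the siCtrl mean, among 11278 genes of at least 5 CPM. They were STEAP3, a ferrireductase gene (difference 0.037), the kallikrein gene KLK6 (0.044) and TCTA (0.047). STEAP3 went from 267.6 to 115.9 CPM, KLK6 from 152.5 to 65.3 CPM and TCTA from 25.2 to 10.5 CPM. Falls near the 0.427-fold level of TNIP1 follow from this way of choosing the genes.

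A list of other IKK genes and of the SCF beta-TrCP ligase, which ubiquitinates phosphorylated IkB, held 9 genes. Of these 6 were called up, 2 down and 1 was not called, beside 30.3% up and 32.1% down among all tested genes, with a median log2 fold change of 0.14. The ligase genes BTRC, FBXW11, SKP1 and CUL1 rose by 0.13 to 0.18, and RBX1 fell by 0.20 on the log2 scale. The IKK-related kinases went apart, TBK1 from 51.7 ± 1.01 to 65.7 ± 1.74 CPM and IKBKE from 16.6 ± 0.767 to 9.53 ± 0.679 CPM (log2 fold change 0.34 and -0.80). Only these 2 kinase genes of the list were also called against a fold change of at least 1.2.

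Upstream of IKK, the list of 21 receptors and adaptors held 4 genes called up, 8 called down and 9 not called, with a median of -0.06 (all tested genes: 30.3% up, 32.1% down, median -0.0014). IL1RAP, the accessory chain of the interleukin-1 receptor, rose from 31.3 ± 1.76 to 70.2 ± 1.98 CPM (log2 fold change 1.17), whereas the receptor gene IL1R1 fell from 13.4 ± 0.745 to 6.47 ± 0.468 CPM (-1.05). TNFRSF1A, the main TNF receptor, rose by 0.41 on the log2 scale, BIRC2 by 0.23 and RBCK1 by 0.18. The signalling genes RIPK1 (-0.60), TAB1 (-0.40) and TAB3 (-0.99) fell. Against a fold change of at least 1.2, BIRC2 and RBCK1 were not called and the other 6 genes were. RBCK1 shares 2 exon bases with TBC1D20 on the opposite strand. SHARPIN, counted among those called down and named after its values were seen, shares 40 with MAF1, which had 38501 counts against 9804.

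Of 22 other genes listed as negative regulators 12 were called up and 5 down, against 30.3% up and 32.1% down of all tested genes. The other 5 were not called, and the median was 0.21. Atypical IkB genes, NFKBIZ among them, are in the list by family and are not only brakes. TRAF3 rose from 31.5 ± 2.04 to 47.9 ± 2.75 CPM (log2 fold change 0.60), the atypical IkB gene NFKBIZ from 29.9 ± 1.93 to 46.0 ± 3.34 CPM (0.62), the A20 partner TAX1BP1 by 0.38 and PDLIM2 by 0.42. NLRC5 fell from 13.4 ± 1.01 to 7.90 ± 0.453 CPM (-0.77), and USP21, PIAS1 and OTULIN fell by 0.36, 0.32 and 0.28 on the log2 scale. Against a fold change of at least 1.2, PIAS1 and OTULIN were not called and the other 6 named genes were. NFKBIZ shares 194 exon bases with NXPE3 on the same strand, which had 36503 counts against 8947, so another counting could split their reads differently. Of the genes counted as called, NKIRAS1 (up, 2636 counts) shares 312 exon bases with RPL15 (111823 counts) and 1132 with UBE2E1 (30623), and NKIRAS2 (down, 16872) shares 480 with DNAJC7 (27831), all on opposite strands, so their calls are uncertain. NKIRAS1 and NKIRAS2 were named for this overlap after their values were seen.

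The 3 non-canonical genes were all called up, beside 30.3% of all tested genes: RELB from 10.2 ± 0.912 to 18.1 ± 1.35 CPM (log2 fold change 0.83), NFKB2 from 55.8 ± 2.97 to 81.3 ± 2.13 CPM (0.54) and MAP3K14, the kinase NIK, from 24.1 ± 1.25 to 41.7 ± 1.92 CPM (0.79). Their changes were larger than that of NFKB1, by values given side by side and with no test of the difference.

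Of 33 other NF-kB target genes 23 were tested, of which 13 were called up, 4 down and 6 not called, with a median of 0.24, where all tested genes had 30.3% up and 32.1% down. Of the 9 matched but untested genes, TNF, IER3 and CCL5 lie among genes that are mostly at 0, with 33 of 38, 16 of 19 and 11 of 16 protein-coding neighbours within 250 kb at 0 counts, so their own counts of 0, 1 and 0 are not read as levels. These 3 genes were named after their values were seen. BIRC3, an inhibitor of apoptosis, rose from 9.62 ± 0.924 to 32.7 ± 1.89 CPM (log2 fold change 1.76, edgeR quasi-likelihood test, Benjamini-Hochberg adjusted p = 6.64e-21), MMP9 from 21.8 ± 1.46 to 40.5 ± 3.08 CPM (0.89), PLAU from 54.2 ± 1.28 to 84.7 ± 2.69 CPM (0.64) and BCL2L1 from 207 ± 7.24 to 290 ± 8.69 CPM (0.49). PTGS2 (-0.59), CSF2 (-0.69), LIF (-0.14) and EFNA1 (-0.20) were called down, each with overlap between the groups. PTGS2 (from 3.57 to 2.37 CPM) and CSF2 (from 1.77 to 1.10 CPM) were at low levels. LIF went from 149.6 to 135.6 CPM and EFNA1 from 18.5 to 16.1 CPM, and neither was called against a fold change of at least 1.2. The calls of LIF and EFNA1 were lost with the correction for GC content, where they were -0.05 and -0.12, and that of EFNA1 also with DESeq2 (adjusted p = 0.0103), without siCtrl replicate 4 (adjusted p = 0.0150, edgeR) or without siDDX41 replicate 1 or 4 (0.0121 and 0.0157).

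**Figure D4:**
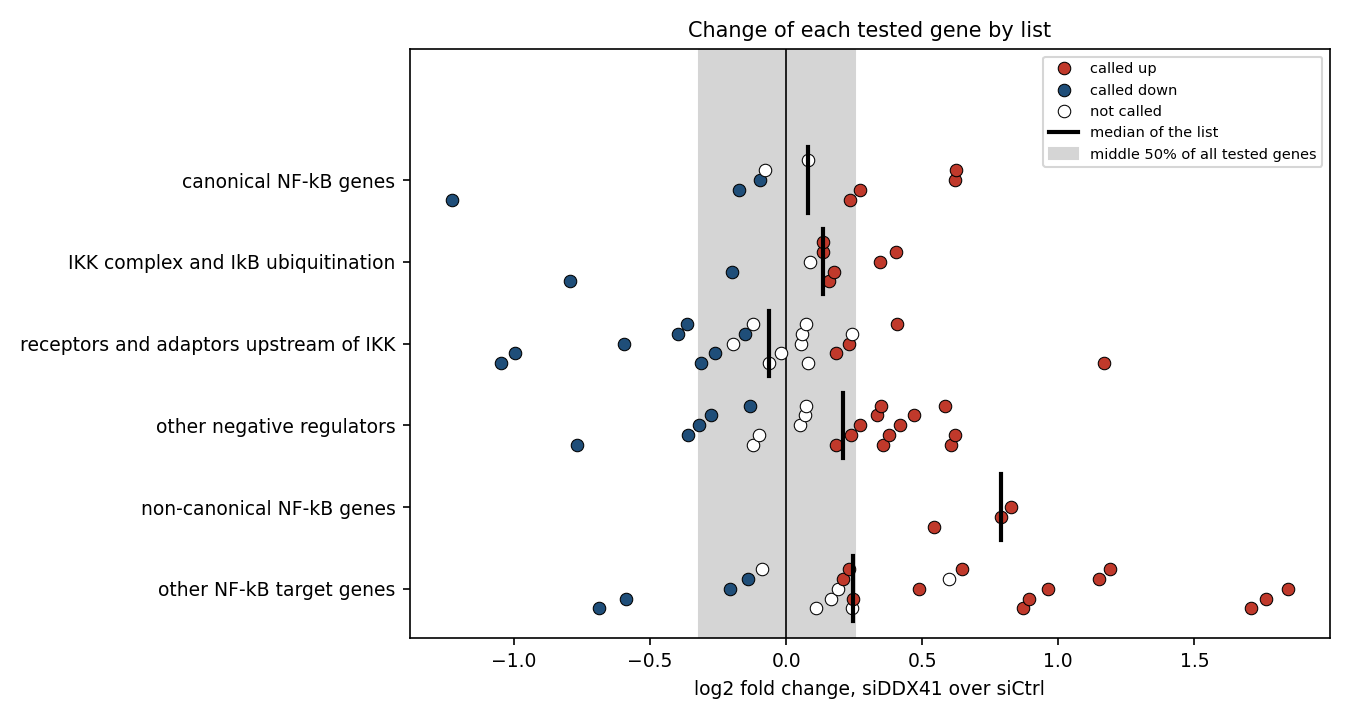
Log2 fold change of siDDX41 over siCtrl for each tested gene (points, coloured by call) in the canonical NF-kB genes and 5 further lists, with the median of each list (bar) and the middle 50% of all tested genes (grey band). The medians are 0.08 for the canonical genes, 0.14, -0.06, 0.21 and 0.24 for the IKK and ligase, upstream, negative regulator and target lists, and 0.79 for the non-canonical genes.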

How the data were processed

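The authors made stranded poly(A) libraries and read them from 1 end. According to the submitters' processing notes and the methods of the study, bcl2fastq 2.19 split the reads by library, STAR 2.7 mapped them (hg38, GENCODE 25) and featureCounts 1.6 assigned them to genes. The deposited values are raw read counts per gene made by the authors, 1 table for each library, without normalization. The strand setting and the treatment of reads with several positions are not given in the sources used here, so a gene and its antisense partner, or near-identical copies, cannot be told apart by these counts.

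The labels gave group and replicate number. Identifiers were joined without their version to GENCODE release 44 (GRCh38, the same build), which gave 56948 of 63299 rows a name, and the other 6351 rows held 0.106% of counts. In R 4.3.3, counts were filtered with filterByExpr, scaled by TMM and tested across all genes with edgeR 4.0.16 (robust glmQLFit and glmQLFTest, Benjamini-Hochberg adjustment, called at an adjusted p-value under 0.01). Standard errors were derived from the F statistic. DESeq2 1.42.0 was run as an alternative. Tables and plots were made in Python 3.11.15 with numpy 2.4.6, pandas 2.3.3 and matplotlib 3.10.9. The tests were checked on counts drawn with known changes, and no result of that check is used here.

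The canonical genes and the other lists were chosen with earlier results of these data known, so no test over a list was made. The genes named by rule were the 10 canonical genes, DDX41, RELB, NFKB2, MAP3K14 and every called IKK subunit and SCF beta-TrCP gene. IKBKG is among these, counted in its list but not described. The rule also took up to 4 genes called up and 4 called down with the smallest adjusted p in each list, and the 3 genes closest to TNIP1. Cell type markers, neighbouring or overlapping genes and genes said to be named after their values were seen stand outside this rule. Within groups, all 20 pairs of libraries differed beyond Poisson noise (chi-square over its degrees of freedom 1.76 to 5.67). Each of the 9 tested canonical genes had from 196 to 2452 counts in a library. Alternatives were another test, scaling, filter, threshold and null hypothesis, a GC content correction, a replicate block and the omission of each library. SOD2 was not matched to a row.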

Additional observations from a re-analysis of the deposited data

Results flagged for a closer look

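Among the values of the named genes and the 2 ratios, 100 groups of 5 libraries were searched for a library whose gap to its nearest neighbour took over 0.71 of the range of the group. Chance gives this in about 1 of 20 groups, and 4 were found. NFKB1 in siDDX41 replicate 1 was at 66.2 CPM, with the next library at 71.6 CPM, and still above all siCtrl libraries. IKBKE in siCtrl replicate 2 was at 17.9 CPM, with the next at 16.3. BIRC3 in siDDX41 replicate 5 was at 29.4 CPM, with the next at 32.9. STEAP3 in siCtrl replicate 3 was at 252.5 CPM, with the next at 269.0.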

How the results depend on the processing

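Across 20 alternative fits, counting each omitted library as 1, DDX41 and the 9 tested canonical genes kept their side of the threshold in 183 of 200 values, lost a call in 15 and gained it in 2. The fits at an adjusted p under 0.05 and against 1.2-fold repeat the main fold changes. Against a 1.2-fold change, 2116 genes were called up and 2925 down, with 2 up and 1 down among the canonical genes. RELA (-0.10), NFKB1 (0.24), IKBKB (-0.17) and NFKBIA (0.27) were no longer called, as this test asks for a larger change. In the same test the IKK and ligase list had 1 up and 1 down, the upstream list 2 and 4, the negative regulators 6 and 2, and the targets 10 and 2. RELA was not called with DESeq2 (-0.0875), DESeq2 size factors (-0.0905), no filter (-0.0922), the GC correction (-0.00144, near 0) or the GC correction with replicate block (-0.00176), and lay between -0.112 and -0.0752 when each library was left out. The GC correction raised TNIP2 to 0.15 and a call, also with the block (0.15), and lowered REL to -0.14 (-0.14 with the block). It moved the inhibitor median to 0.34 (0.34 with the block). In either form 16 targets were called up and 2 down, beside 13 and 4 without it. Over all 16143 tested genes it called 5165 up and 5145 down (5046 and 5047 with the block), beside 4890 and 5178 without it. The cause of these changes was not tested. Of the 760 values of the 38 other genes picked by the naming rule, 740 kept their call and 20 lost it.

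The replicate numbers did not pair the libraries. Same-numbered libraries had deviations correlated at -0.15 to 0.12, 2 of 5 pairs were over 0.1, and 2 of 5 siCtrl libraries matched their own number best. With the replicate block 4790 genes were called up and 5097 down, beside 4890 and 5178 without it, and no canonical gene changed its call. A length from all exons in place of the MANE Select transcript, added after seeing the data, gave an IkB to subunit ratio 1.37-fold higher in siDDX41, beside 1.29-fold. Low counts leave 9 of the 32 matched target genes without a test, 3 of them (TNF, IER3, CCL5) in regions mostly at 0. NFKBIB, at 0, gave no value in any fit. REL and TNFAIP3 have the fewest counts of the tested canonical genes.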
